A study of Mus musculus with 6 samples.

Results

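A set of 10 genes from the secretory machinery and the identity program of plasma cells was followed in splenic T cell samples, namely Jchain, Mzb1, Derl3, Tnfrsf17, Sdc1, Xbp1, Prdm1, Irf4, Edem1 and Creld2. They are 10 of the 22180 genes that the arrays measured with a probe set (the group of probes for a transcript) naming that gene alone, and all 10 were measured. Where a gene had more than 1 such probe set, the brightest by the mean over the 6 arrays was used. The genes were picked by function, with earlier results of these data known. They fall into 5 genes that are largely restricted to plasma cells and their B lineage precursors (Jchain, Mzb1, Derl3, Tnfrsf17 and Sdc1) and 5 that T cells also express (Xbp1, Prdm1, Irf4, Edem1 and Creld2).

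The samples were T cells from the spleens of 6 to 8 week old mice, 3 of wild-type C57Bl/6 genotype (WT) and 3 deficient for the phosphatase DUSP4 (DUSP4-/-), all uncultured and untreated. The mice were back-crossed to C57Bl/6, and the methods name no promoter or Cre that would confine the loss of DUSP4 to T cells. T cells were enriched on magnetic beads. The legend for the arrays calls them naive and refers to the methods for their purification. The only such enrichment described in the methods depletes CD8+ cells and cells with B220, CD11b, CD49b or Ter119, yet Cd8a was bright in these arrays, so which depletion was applied is not settled. RNA of each sample, taken without culture, went onto its own Mouse Gene 2.0 ST array (Affymetrix). The labels number the samples 1 to 3 in each genotype and do not say whether each came from 1 animal, so tests measure the spread between samples. Samples of the same number were compared as pairs.

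Plasma cells are the antibody-secreting end stage of B cells. The transcription factor IRF4 starts the program, Blimp-1 (encoded by Prdm1) shuts down B cell genes, and XBP1, made active by the ER stress sensor IRE1, expands the endoplasmic reticulum (ER) so that large amounts of immunoglobulin can be folded and secreted. T cells use the same factors in other ways, IRF4 and Blimp-1 in activated, effector and regulatory cells and XBP1 in the general response to unfolded protein.

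Levels are log2 values of robust multi-array average (RMA) normalization, and a difference of 1 is a change of 2-fold. Array medians lay between 4.99 and 5.07. The 11 measured T cell markers had mean levels of 10.32 to 10.53 in the 6 arrays, with Cd4, Cd8a and Cd8b1 all bright. Dusp4, the targeted gene, lay below WT in every pair (differences of -1.23, -1.44 and -1.35). Xist, the RNA of the inactive X chromosome, read 10.09 and 10.12 in replicate 1 of WT and DUSP4-/- and at most 3.87 in the other arrays, so the replicate number goes with apparent sex. No gene passed an adjusted p of 0.05 from limma, whether or not the fit carried the replicate number as a blocking term (the block).

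**Figure D1:**
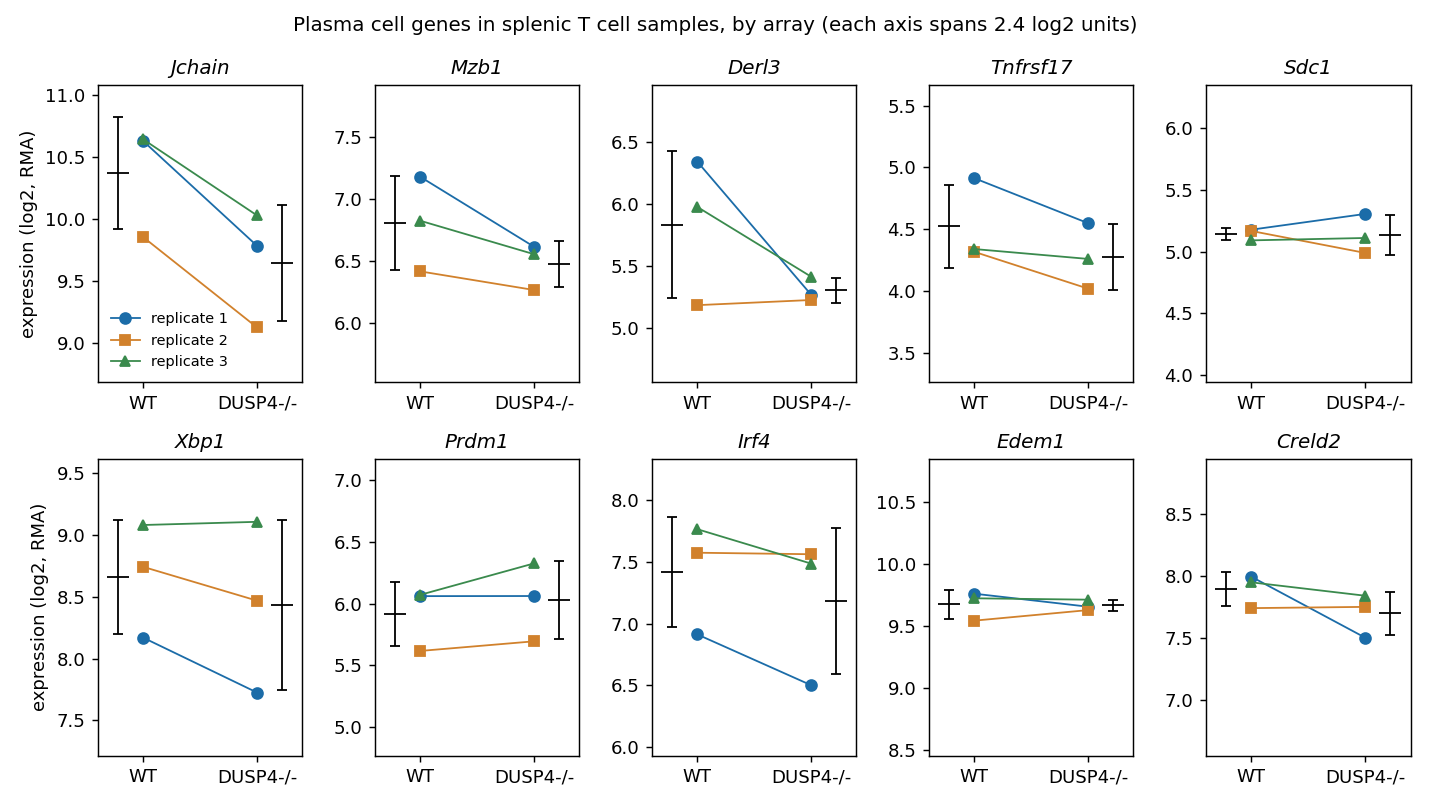
Expression (log2, RMA) of the 10 genes in each WT and DUSP4-/- array; lines join samples of the same replicate number, and black bars give the mean and SD of 3 arrays. All 3 lines fall for Jchain, from 9.85 to 10.64 in WT to 9.13 to 10.03 in DUSP4-/-, while those of Edem1 stay nearly level.

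Jchain, the joining chain that links IgM and IgA into polymers, was lower in DUSP4-/- samples by a similar amount in every pair. It read 10.63, 9.85 and 10.64 in WT replicates 1 to 3 and 9.79, 9.13 and 10.03 in DUSP4-/- replicates 1 to 3. Replicate 2 was lowest in both genotypes, and the groups overlapped because WT replicate 2 lay below DUSP4-/- replicate 3. The differences within pairs were -0.85, -0.73 and -0.61, with an SD of 0.12 against SDs of 0.45 and 0.47 between the arrays of each genotype. The mean difference of -0.73 corresponds to 0.603 times the WT level, and the 95% interval ran from 0.383 to 0.951 (limma, n = 3 per genotype, adjusted p = 1.00). In the blocked fit the interval was 0.509 to 0.715, and limma gave an adjusted p of 0.762. An exact two-sided permutation test over samples, which did not use the pairs, gave p = 0.2. The smallest value that 3 arrays against 3 can reach in it is 0.1. Leaving out DUSP4-/- replicate 2, the lowest array, gave a mean difference of -0.47. That fit kept WT replicate 2, the lowest of its genotype, so it does not show that 1 array carried the difference. Of the 22180 genes, 0.131% had a mean difference this low or lower. In bulk samples such as these, fewer cells of a type and less RNA per cell cannot be told apart.

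Mzb1, an ER chaperone of B lineage cells that helps to assemble and secrete IgM, was also below WT in each pair. Its levels were 7.18, 6.42 and 6.83 in WT and 6.62, 6.27 and 6.56 in DUSP4-/- replicates 1 to 3. The highest 2 arrays were WT, but WT replicate 2 was below DUSP4-/- replicates 1 and 3. The fold was 0.796, with an interval of 0.575 to 1.10 without the block and 0.652 to 0.974 with it (adjusted p from limma of 1.00 and 0.762). Without WT replicate 1, the highest array, the mean difference went from -0.33 to -0.14. That fit kept DUSP4-/- replicate 1, the highest of its genotype. The differences within pairs were -0.56, -0.15 and -0.27. Tnfrsf17 encodes BCMA, the receptor through which plasma cells receive the survival signals APRIL and BAFF. It read 4.91, 4.32 and 4.34 in WT and 4.55, 4.02 and 4.26 in DUSP4-/- samples, below the median probe set of 5.03 in all 6 arrays. Its difference was negative in each pair (-0.36, -0.30 and -0.080), and the fold of 0.843 had an interval of 0.607 to 1.17. Its mean difference of -0.25 went to -0.052 without WT replicate 1 and to -0.12 without DUSP4-/- replicate 2. Each of these fits kept the partner of the same number, so they do not show that 1 array carried the difference.

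Derl3, a derlin that passes misfolded proteins out of the ER for degradation, had a mean difference of -0.53 that was uneven over the pairs. It read 6.34, 5.18 and 5.98 in WT and 5.27, 5.22 and 5.41 in DUSP4-/- samples. Thus 2 WT arrays stood above all the others, and WT replicate 2 was the lowest of the 6. The differences within pairs were -1.07, 0.042 and -0.56, and 96.5% of all genes had a spread over the pairs as small or smaller. The fold was 0.692 with an interval of 0.452 to 1.06. The mean difference was -0.28 without WT replicate 1 and -0.86 without WT replicate 2. Sdc1, the surface proteoglycan CD138 by which plasma cells are commonly sorted, did not follow these genes. It read 5.18, 5.17 and 5.09 in WT and 5.30, 4.99 and 5.11 in DUSP4-/- samples, close to the median probe set throughout. Its fold was 0.993 with an interval of 0.807 to 1.22, and a dimmer probe set for Sdc1 had a mean difference of -0.11.

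Of the transcription factors, none moved in a way that the arrays could separate from the spread between samples. Xbp1 read 8.17, 8.74 and 9.08 in WT and 7.73, 8.47 and 9.10 in DUSP4-/- replicates 1 to 3, so replicate 1 was low in both genotypes and the groups overlapped almost completely. The differences within pairs were -0.44, -0.27 and 0.026, and the fold of 0.853 had an interval of 0.486 to 1.50. Irf4 showed the same low replicate 1, with 6.91, 7.57 and 7.76 in WT and 6.50, 7.56 and 7.48 in DUSP4-/- samples. Its differences were -0.41, -0.012 and -0.28, for a fold of 0.851 (0.512 to 1.41). Leaving out DUSP4-/- replicate 1 turned the mean difference to 0.12 for Xbp1 and 0.11 for Irf4. Its WT counterpart, which was also low but less so, stayed in. Prdm1 was the only one of the 10 genes with a mean above WT. It read 6.06, 5.62 and 6.07 in WT and 6.06, 5.69 and 6.32 in DUSP4-/- samples, a fold of 1.08 (0.786 to 1.48), and the difference in pair 1 was only 0.00082.

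The remaining genes serve the ER of most cells. Edem1, a lectin-like protein that marks misfolded glycoproteins for degradation, had nearly the same level in every array, 9.76, 9.54 and 9.72 in WT and 9.66, 9.63 and 9.71 in DUSP4-/- samples. Its fold was 0.993, with an interval of 0.817 to 1.21 that overlaps the one of Jchain (0.383 to 0.951). Whether these genes differ was not tested. Creld2, an ER-resident protein induced when unfolded protein accumulates, read 8.00, 7.74 and 7.95 in WT and 7.50, 7.75 and 7.84 in DUSP4-/- samples. DUSP4-/- replicate 1 was the lowest and the other 5 arrays lay within a narrow range, so the mean difference of -0.20 came mainly from pair 1 (-0.49, against 0.010 and -0.11). The fold was 0.873 (0.695 to 1.10), and the mean difference was -0.099 without DUSP4-/- replicate 1.

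The promoters of the members were searched for the elements through which ATF6 and XBP1 act, since Derl3, Edem1 and Creld2 are known targets of this response. RefSeq promoters (GRCm38.p6, 250 bases before to 50 after the start) were used for 9 of the 10 genes. Mzb1 was left out of the search. The ER stress response element, a CCAAT box and CCACG with 9 bases between them on either strand, was found in Derl3 and Creld2 and in none of the other 7, and 0.119% of 32851 mouse promoters hold it. Its second form (ATTGG, 1 base, then CCACG; 0.0365% of promoters) and the XBP1 core GACGTG (6.38%) were found in none of the 9. The Derl3 and Creld2 promoters are shown with the match in capitals, on the opposite strand in both. The match lies 156 to 138 bases before the start in Derl3 and 126 to 108 bases before it in Creld2. The windows are chr10:75893148-75893447 (+) for Derl3 and chr15:88819396-88819695 (+) for Creld2, each written along the strand of its gene.
Derl3: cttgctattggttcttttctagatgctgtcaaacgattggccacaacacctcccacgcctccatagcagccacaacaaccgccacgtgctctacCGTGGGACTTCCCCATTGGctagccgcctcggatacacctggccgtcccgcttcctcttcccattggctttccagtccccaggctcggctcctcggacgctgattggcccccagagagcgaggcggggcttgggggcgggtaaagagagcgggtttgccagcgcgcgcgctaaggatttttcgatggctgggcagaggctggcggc
Creld2: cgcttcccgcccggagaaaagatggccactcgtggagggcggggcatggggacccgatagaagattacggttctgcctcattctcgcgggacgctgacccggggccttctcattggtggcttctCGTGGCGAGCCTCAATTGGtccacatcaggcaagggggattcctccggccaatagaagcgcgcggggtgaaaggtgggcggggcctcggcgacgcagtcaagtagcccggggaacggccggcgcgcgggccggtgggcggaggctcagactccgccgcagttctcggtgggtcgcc
Both genes with the element were lowest against WT in pair 1 and just above WT in pair 2, with larger differences for Derl3. In the 3 pairs Derl3 was at -1.07, 0.042 and -0.56 and Creld2 at -0.49, 0.010 and -0.11. Edem1, in which the element was not found, had the same order (-0.10, 0.085 and -0.011). The order was thus not particular to genes with the element. A match to letters does not show that a factor binds there.

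**Figure D2:**
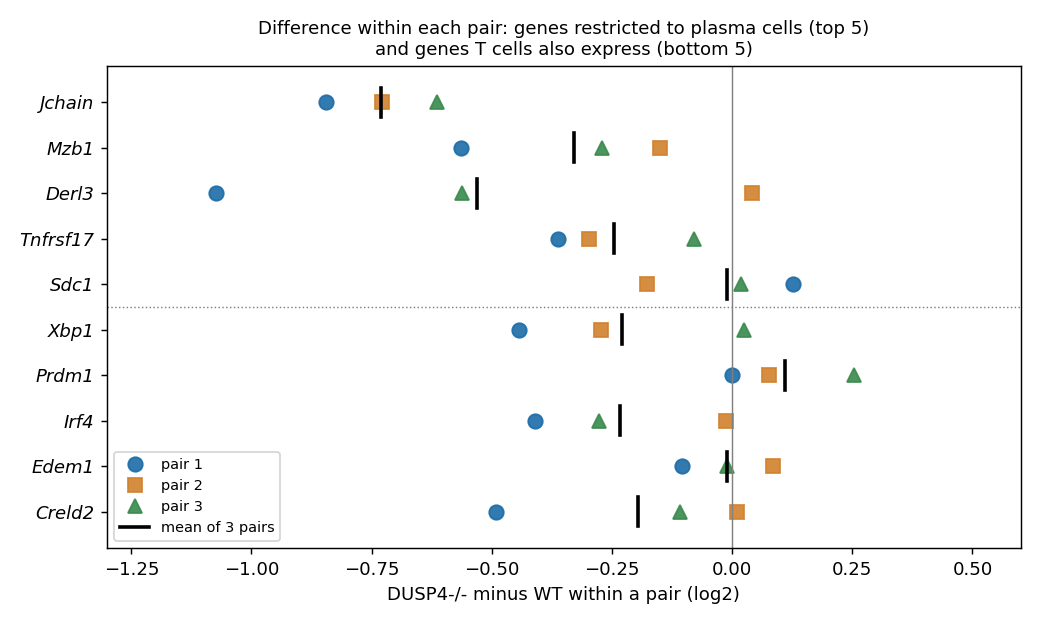
Difference in log2 expression, DUSP4-/- minus WT, within each of 3 pairs of the same replicate number, with the mean as a black bar. The 3 points of Jchain lie together between -0.85 and -0.61, those of Derl3 spread from -1.07 to 0.042, and those of Edem1 lie around 0.

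Counted together, 9 of the 10 genes had a mean below WT, where 44.1% of all genes did. Jchain, Mzb1, Tnfrsf17 and Irf4 were lower in all 3 pairs, that is 4 of 10 genes, while 11.1% of all 22180 genes were. Prdm1 was higher in all 3 pairs, as were 16.6% of all genes. For none of the 10 did every DUSP4-/- array lie below every WT array, which held for 2.43% of all genes. None of the 10 passed the adjusted threshold in limma (0% of all genes without and 0% with the block). At an unadjusted p under 0.05 from limma, Jchain was lower without the block, where 0.911% of all genes were, and Jchain, Mzb1 and Derl3 were lower with the block, where 2.49% of all genes were. The 5 genes restricted to plasma cells had a median difference of -0.33 and the 5 that T cells also express one of -0.20, beside a median of 0.019 over all genes. Without WT replicate 1 the first median was -0.14, and without DUSP4-/- replicate 1 the second turned to 0.094. Both fits kept the partner of the same number. Pair 1 gave the lowest median in both groups, -0.56 and -0.41, while in pairs 2 and 3 the restricted genes were at -0.18 and -0.27 and the shared genes at 0.010 and -0.011. Whether the 2 groups differ was not tested.

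The genes also differed in how they varied among samples of the same genotype. In WT, replicate 2 gave the lowest reading of Jchain, Mzb1, Derl3 and Tnfrsf17, and in DUSP4-/- it did so again for all 4. The margin was small for Tnfrsf17 in WT (4.32 against 4.34) and for Derl3 in DUSP4-/- (5.22 against 5.27). Prdm1 and Edem1, which T cells also express, were lowest in replicate 2 of both genotypes as well. Replicate 1 gave the lowest reading of Xbp1 and Irf4 in both genotypes, by 0.74 and 0.76 below the mean of replicates 2 and 3 in WT and by 1.06 and 1.02 in DUSP4-/-. Jchain, Mzb1 and Tnfrsf17, in contrast, were above the mean of replicates 2 and 3 in replicate 1 of both genotypes, by 0.20 to 0.58. The unfolded protein response genes Atf3 and Eif2ak3 were low in replicate 1 as well. Atf3, a stress-induced transcription factor, read 5.98 and 5.99 in replicate 1 of WT and DUSP4-/- and 7.85 to 8.28 in the other arrays, and Eif2ak3, the sensor kinase PERK, read 7.45 and 7.38 against 8.80 to 9.27. In the same list Atf4, Ddit3 and Ppp1r15a were lowest in replicate 1 of both genotypes too, but Atf6 and Atf6b were highest there. A low replicate 1 was not particular to this response. The inhibitory receptor gene Ctla4 read 7.44 and 7.21 in replicate 1 of WT and DUSP4-/- and 8.54 to 9.09 in the other arrays. All these genes were singled out after their values were seen. Xist was low in replicates 2 and 3 of both genotypes, so only replicate 1 stood apart in apparent sex. For the replicate 1 readings, apparent sex, replicate number and any handling shared by samples of 1 number cannot be told apart. What lay behind the replicate 2 readings was not tested.

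**Figure D3:**
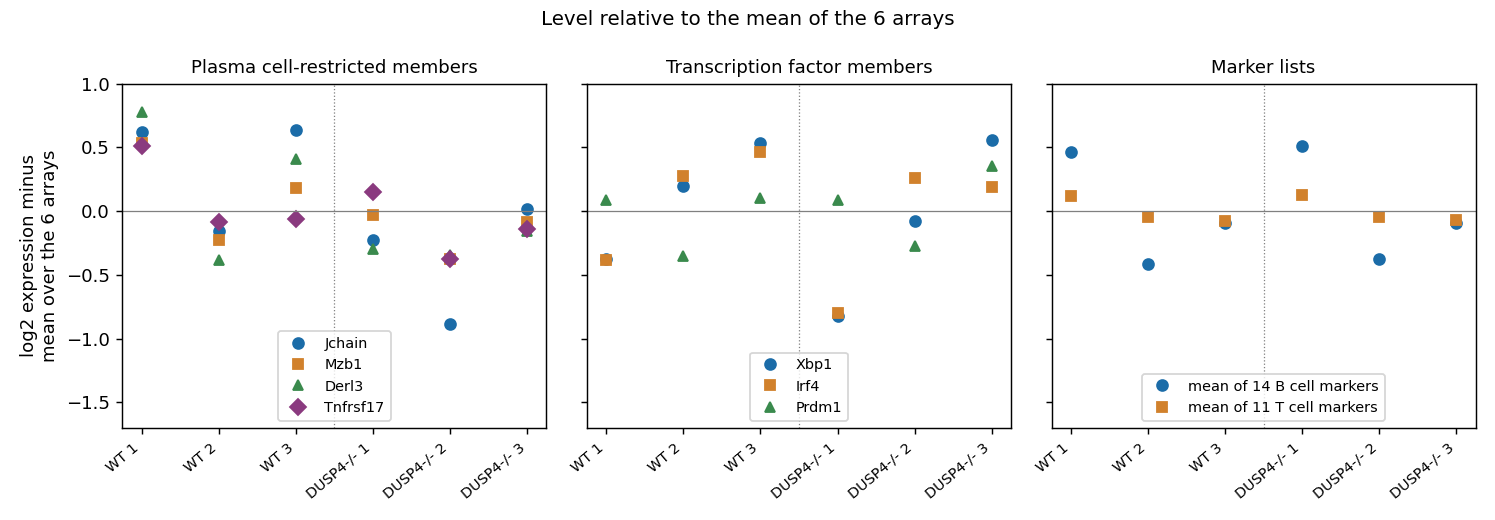
Log2 expression minus the mean over the 6 arrays, for 4 restricted genes, for 3 transcription factors, and for the mean of 14 B cell and 11 T cell markers. Jchain, Mzb1, Derl3, Tnfrsf17 and Prdm1 are lowest in replicate 2 of each genotype. Jchain, Mzb1 and Tnfrsf17 lie below WT at each number, whereas B cell markers are low in replicate 2 but alike in the 2 genotypes.

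The level of B cell transcripts followed the same replicates but not the genotype. The 14 measured B cell markers, such as the receptor components Cd79a and Cd79b and the surface protein Ms4a1 (CD20), had mean levels of 6.43, 5.56 and 5.88 in WT and 6.48, 5.59 and 5.88 in DUSP4-/- replicates 1 to 3. Replicate 2 was therefore lowest in both genotypes, as for Jchain, Mzb1, Derl3 and Tnfrsf17, but the 2 genotypes were close at each number. The median difference over these markers was 0.031 (5 below and 9 above WT, from -0.17 to 0.27), and none was lower in all 3 pairs. Pax5, the factor that holds B cell identity and that Blimp-1 represses, was at 0.15. That mean came from pair 1 (0.47, against -0.024 and 0.0011 in pairs 2 and 3). Other cells that use parts of the secretory program were examined in the same way. Of 9 markers of plasmacytoid dendritic cells, 6 were below WT with a median of -0.052. Siglech, a defining surface lectin of these cells, read 4.99, 5.03 and 5.13 in WT and 4.69, 4.58 and 4.87 in DUSP4-/- samples, near or below the median probe set. Its DUSP4-/- arrays all lay below its WT arrays, as held for 2.43% of all genes. Siglech had the largest difference of its list, and Ly6d (-0.27) and Bst2 (-0.21) followed it in size. The mean level of the list was 5.54 to 5.76 in WT and 5.49 to 5.74 in DUSP4-/- arrays. Myeloid markers had a median of -0.15 (7 of 10 below WT, mean level 5.38 to 5.81 in WT and 5.41 to 5.61 in DUSP4-/-). NK cell markers had a median of -0.018 (4 of 7 below, mean level 5.07 to 5.43 and 5.05 to 5.49), but single genes differed widely. Klrc2 (-0.72) and Fcer1g (-0.31) were lower in all 3 pairs, as 11.1% of all genes were, while Klrb1c was at 0.54. Klrc2 and Klrb1c mostly read below the median probe set. The part of plasmacytoid dendritic, myeloid and NK cells in the readings of Jchain, Mzb1 and Derl3 was not tested. T cell markers had a median of -0.0075.

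The genes whose course over the 6 arrays lay closest to that of Jchain were all immunoglobulin light chain variable genes. Likeness was the root mean square difference between log2 values centred on their mean, over genes brighter than the median probe set. The closest was Iglv1 (0.093), followed by 4 kappa chain genes at 0.12 to 0.24, among them Igkv5-43 and Igkv8-30. Iglv1 read 11.33, 10.50 and 11.27 in WT and 10.52, 9.82 and 10.94 in DUSP4-/- samples, which gives differences within pairs of -0.81, -0.68 and -0.33. Closest to the mean course of the 5 restricted genes were Txndc5 (0.094), a disulfide isomerase abundant in plasma cells, AW046200 (0.096), the perforin gene Prf1 (0.10), the ribosomal protein gene Rps27 (0.106) and Ighm (0.106), the heavy chain of IgM. Of the immunoglobulin constant genes, only Ighm and Ighg3 had a probe set naming them alone. Ighm read 12.54, 12.15 and 12.47 in WT and 12.33, 11.87 and 12.16 in DUSP4-/- samples, and Ighg3, the heavy chain of IgG3, 9.40, 7.75 and 10.50 against 8.72, 6.74 and 8.44. Both were below WT in each pair, with differences of -0.20 to -0.32 for Ighm and -0.68 to -2.05 for Ighg3, but for Ighg3 the spread between arrays of 1 genotype was larger than the mean difference of -1.25 (SD 1.38 in WT).

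Other genes of plasma cells showed a mixed picture. Of 13 measured genes, 9 had a mean below WT, and 6 were lower and 2 higher in all 3 pairs. Over all genes the shares were 44.1%, 11.1% and 16.6%. The median was -0.16, but none passed the adjusted threshold. Eaf2, a partner of the transcription elongation factor ELL2 that plasma cells use to process immunoglobulin heavy chain transcripts, had the largest difference. It read 5.17, 4.50 and 4.55 in WT and 4.15, 4.18 and 3.86 in DUSP4-/- samples, with a mean difference of -0.67 (adjusted p = 1.00 from limma). All DUSP4-/- arrays thus lay below all WT arrays, as held for 2.43% of all genes. Most of these readings lay below the median probe set. Txndc5 was at -0.27, and its differences in the pairs were -0.50, -0.16 and -0.15. Pou2af1, the B lineage coactivator OBF-1, was at -0.26, with differences of -0.44, -0.33 and -0.027.

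**Figure D4:**
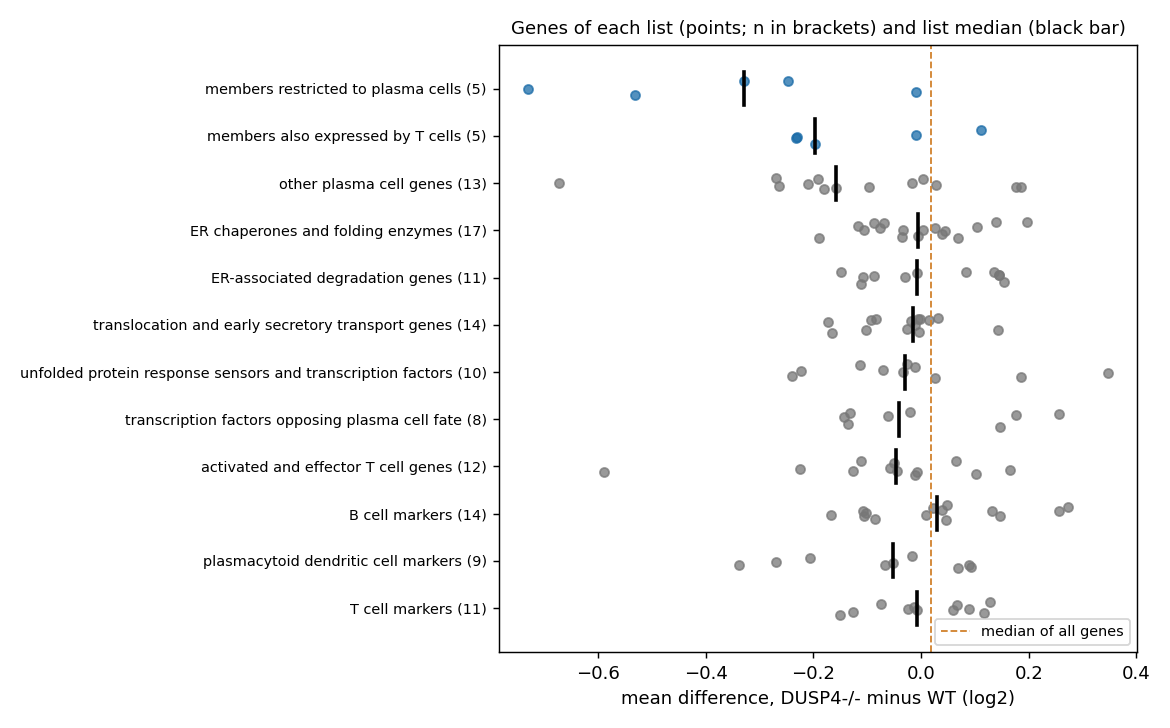
Mean difference in log2 expression, DUSP4-/- minus WT, of each gene (points) in 12 lists, with the list median (black bar) and the median of all genes (dashed line). The 5 restricted genes have a median of -0.33, while the medians of the 3 lists of general ER genes lie at -0.016 to -0.0059.

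The general ER machinery, on which plasma cells depend but which T cells also need, lay near the median of all genes. Among 17 chaperones and folding enzymes 9 were below WT, with a median of -0.0059, and 3 were lower and 3 higher in all 3 pairs. The largest difference was that of Hspa5, which encodes the chief ER chaperone BiP, and it was upward. Hspa5 read 8.53, 8.98 and 9.03 in WT and 8.79, 9.17 and 9.18 in DUSP4-/- samples, with differences of 0.26, 0.19 and 0.15. Fkbp2 (-0.19) and the lectin chaperone Canx (0.14) came next. Among 11 genes of ER-associated degradation 6 were below WT, with a median of -0.0072, 2 lower and 4 higher in all 3 pairs. Edem3, a relative of Edem1, was at 0.15 and Derl1, a relative of Derl3, at 0.15, higher in all 3 pairs, while Sel1l, an adaptor of the degradation complex, was at -0.15. Among 14 genes of translocation and early transport 11 were below WT, where 44.1% of all genes were. The median was -0.016, and Lman1 (-0.17), Sec24d (-0.17) and Ssr1 (0.14) differed most. Of the 10 sensors and transcription factors of the unfolded protein response 7 were below WT, with a median of -0.030. Ern1, which encodes IRE1, the enzyme that activates Xbp1 mRNA by splicing, was below WT in each pair (-0.099, -0.36 and -0.27), Trib3 was at 0.35 and Atf3 at -0.22. None of these 52 genes passed the adjusted threshold.

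Genes that accompany Prdm1 and Irf4 in activated T cells were mostly below WT in the mean, but by little and unevenly over the pairs. Of 12 such genes 9 were below WT, where 44.1% of all genes were. Their median was -0.047, and none was lower or higher in all 3 pairs. Gzmb (granzyme B) had the largest difference, -0.59, made by pairs 2 and 3 (-0.80 and -1.26) against 0.29 in pair 1, and the inhibitory receptor genes Pdcd1 and Tigit were at -0.22 and 0.16. Factors that oppose the plasma cell program had a median of -0.041 over 8 genes, with Spib at 0.26 and Mitf at 0.18. Bach2, which represses Prdm1 in B cells and was named after its values were seen, read 8.92 to 9.04 in WT and 8.75 to 9.02 in DUSP4-/- samples.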

How the data were processed

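For each of 41345 probe sets in 6 samples the authors deposited a log2 value from RMA, which corrects background, quantile-normalizes arrays and summarizes probes. The submitters' processing notes name Affymetrix Expression Console, and its version is not given in the sources used here. Annotation named 1 gene for 23521 probe sets, several for 1820 and none for 16004; the first were tested, and 23328 of them were matched to current symbols (GRCm38.p6) by Entrez identifier. The genome build behind the authors' array annotation is not stated. The genotypes were compared (DUSP4-/- minus WT) by the moderated linear model of limma 3.58.1 (R 4.3.3; lmFit, eBayes) without a block, over all tested probe sets, with Benjamini-Hochberg adjustment and a threshold of 0.05. The legend for the arrays names an analysis of variance and does not say whether it had a block. The procedure was tested on simulated data. No figure of depth exists for arrays, and their number, 3 per genotype, limits precision.

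The members and the gene lists were chosen with earlier results of these data known. Lists are described by counts and medians. The text names the members, Dusp4, up to 3 genes per list with the largest differences, the 5 genes nearest in course to Jchain and to the mean of the restricted genes, and a few genes said to be chosen on their values or given as markers. Of 6 erythroid markers none had a probe set naming it alone. Same-numbered samples were taken as pairs because the legend speaks of pairs and their deviations from the genotype means correlated over genes (r of 0.58, 0.31 and 0.43; other combinations -0.44 to 0.10).

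Alternatives were the replicate block, leaving out each sample, leaving out dim probe sets, an intensity trend with robust settings, array weights, repeated quantile normalization, subtracted array medians, the mean over probe sets, gene-by-gene analysis of variance and a threshold of 0.1.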

Additional observations from a re-analysis of the deposited data

How the results depend on the processing

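No gene passed the threshold under any alternative except without WT replicate 1, so the count over fits without 1 sample ranged from 0 to 1, and it was 0 with the replicate number as a block. Jchain, Mzb1, Derl3, Tnfrsf17 and Creld2 stayed below WT under every alternative that kept them, Jchain at -0.99 to -0.47, Mzb1 at -0.52 to -0.14, Derl3 at -0.86 to -0.22 (array weights), Tnfrsf17 at -0.38 to -0.052 and Creld2 at -0.27 to -0.085 (array weights). The median of the restricted genes was -0.33 with the block and -0.52 to -0.14 without 1 sample. That of the genes T cells also express ranged from -0.27 to 0.094 in those fits, and it turned positive without DUSP4-/- replicate 1. The signs that turned without 1 sample were those of Xbp1 (-0.57 to 0.12), Irf4 (-0.49 to 0.11), Prdm1 (-0.039 to 0.28), Sdc1 (-0.095 to 0.062) and Edem1 (-0.077 to 0.032). With array weights Edem1 was at 0.042. The cause was not tested. Members lower in all 3 pairs numbered 3 without dim probe sets, which drops Tnfrsf17, and 4 with repeated quantile normalization, subtracted medians or the mean over probe sets. The fits that left out a sample kept its partner and were not blocked. Readings near the median probe set (Sdc1, Tnfrsf17, Derl3, Eaf2, Siglech) limit what could be detected.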
